A study of Homo sapiens with 3 samples.

Results

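The genes described here are annotated as antisense, which means transcribed from the strand opposite another gene, yet their intervals share no base with any other gene in a table of RNA recovered with CTCF. They were chosen by annotation and position, with overlap judged only against listed genes, all of which have 6 counts or more. Of the 17201 listed genes, 279 meet the rule. They make up 19.6% of the 1423 listed antisense genes (95% Clopper-Pearson interval 17.6 to 21.8%). Of the rest, 1142 overlap a listed gene, and 2 much-studied RNAs, KCNQ1OT1 and HOTAIR, overlap none but were left out by name. The series used U2OS, an established human osteosarcoma line, in 1 condition, and every value is from the merge of 2 biological replicates precipitated with different lots of one CTCF antibody. In PAR-CLIP, cells take up the uridine analogue 4-SU (here 400 µM), light of 365 nm at 400 mJ/cm2 joins it to proteins that touch the RNA, and the RNA that stays with the precipitated protein is sequenced. The single replicates, an input, a control precipitation and RNA abundance were not analysed here, so the counts have no replicate error and no background, and no test between groups was possible.

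Antisense transcripts arise in several ways. Some start inside the gene they oppose, often in an intron or near its far end, and some start beside it from a shared promoter and run the other way. A few are known to act on the gene they oppose, by chromatin, by splicing or by pairing with its RNA, while for most no role is known. CTCF, a zinc-finger protein that anchors chromatin loops, is known to bind RNA as well as DNA, and an antisense transcript of the p53 locus is a known partner.

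The start-site windows of the 4 highest-count members that a RefSeq promoter table (GRCh38.p14) holds are printed to show how unlike they are. Each window runs 5′ to 3′ on the strand of the antisense gene, from 250 bases before its start to 50 after. Capitals mark CCCTC, the run after which CTCF (CCCTC-binding factor) is named, on either strand (GAGGG on the printed one). The windows lie at chr6:56843736-56844035 (plus strand), chr2:172556415-172556714 (minus), chr3:196939627-196939926 (plus) and chr1:39564820-39565119 (plus).
DST-AS1: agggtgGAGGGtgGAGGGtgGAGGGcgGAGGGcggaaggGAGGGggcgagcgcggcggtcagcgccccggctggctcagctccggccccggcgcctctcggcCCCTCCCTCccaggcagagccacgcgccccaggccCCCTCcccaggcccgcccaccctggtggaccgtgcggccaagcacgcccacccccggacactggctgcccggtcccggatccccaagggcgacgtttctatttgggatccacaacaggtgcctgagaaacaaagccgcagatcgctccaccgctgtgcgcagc
PDK1-AS1: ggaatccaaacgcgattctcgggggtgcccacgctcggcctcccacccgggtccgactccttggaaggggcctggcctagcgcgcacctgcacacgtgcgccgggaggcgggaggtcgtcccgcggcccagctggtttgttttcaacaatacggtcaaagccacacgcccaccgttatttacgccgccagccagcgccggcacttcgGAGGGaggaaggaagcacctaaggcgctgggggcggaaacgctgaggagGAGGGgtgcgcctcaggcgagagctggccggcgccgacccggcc
NCBP2-AS1: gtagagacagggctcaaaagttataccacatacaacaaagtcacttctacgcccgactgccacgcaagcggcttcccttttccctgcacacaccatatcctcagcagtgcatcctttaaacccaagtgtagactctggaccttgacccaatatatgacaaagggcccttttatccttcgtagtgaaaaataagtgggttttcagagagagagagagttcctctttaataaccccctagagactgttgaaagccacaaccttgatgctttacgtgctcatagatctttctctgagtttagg
PABPC4-AS1: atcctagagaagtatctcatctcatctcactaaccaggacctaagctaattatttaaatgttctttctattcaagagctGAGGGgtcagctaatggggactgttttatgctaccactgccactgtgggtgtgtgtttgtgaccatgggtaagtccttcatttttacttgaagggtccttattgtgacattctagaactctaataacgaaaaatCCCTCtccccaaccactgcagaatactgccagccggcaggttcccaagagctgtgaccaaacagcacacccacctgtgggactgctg
The first window holds 27 CG pairs and 8 matches to CCCTC, and the second holds 33 CG pairs and 2 matches. The third has 6 CG pairs and 0 matches, and the last has 2 CG pairs and 2 matches. Of the 87 members in the promoter table, 60 windows (69.0%, 58.1 to 78.5%) hold CCCTC on either strand, against 71.2% of all 35116 windows in that table. A run from the CTCF core motif, CCGCGNGG, searched on both strands, is in 7 of the 87 (8.05%, 3.30 to 15.9%) and in 11.0% of all windows. These letters were thus about as common at the members' starts as at starts in general, and a match is only a match of letters.

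Counts of the members were low. They ranged from 6, the lowest count in the table, to 237, with a median of 13 (95% order-statistic interval over genes 12 to 15) and quartiles of 8 and 25. The median over all listed genes was 31, and 52 members (18.6%, 14.2 to 23.7%) lay above it. Of the members, 190 (68.1%, 62.3 to 73.5%) had 10 counts or more, against 84.0% of all listed genes, and 9 (3.23%) had 100 or more, against 20.5%. At the other end, 34 members were at 6 counts, for which the exact 95% Poisson interval is 2.20 to 13.1, so the order among low members is not resolved at this depth. All members together held 6651 counts, or 0.503% of the table's summed count of 1322047. The 10 highest members held 21.9% of those 6651. Intervals cover counting error or the number of genes only, since molecules amplified by PCR are not independent and the single cultures were not analysed here.

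The markers of the cell line gave a mixed picture. Of 10 mesenchymal and bone genes, 7 were listed, with fibronectin (FN1) at 1277 counts, CD44 at 632, COL1A1 at 602 and ALPL at 8, while COL1A2, SP7 and BGLAP were not listed. Of 8 genes of blood, liver and epithelium, KRT8 (206) and KRT18 (146) were listed. These counts are those of recovered RNA. RNA abundance, recovery with CTCF and background cannot be told apart in them, nor can fewer cells and less RNA per cell.

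**Figure D1:**
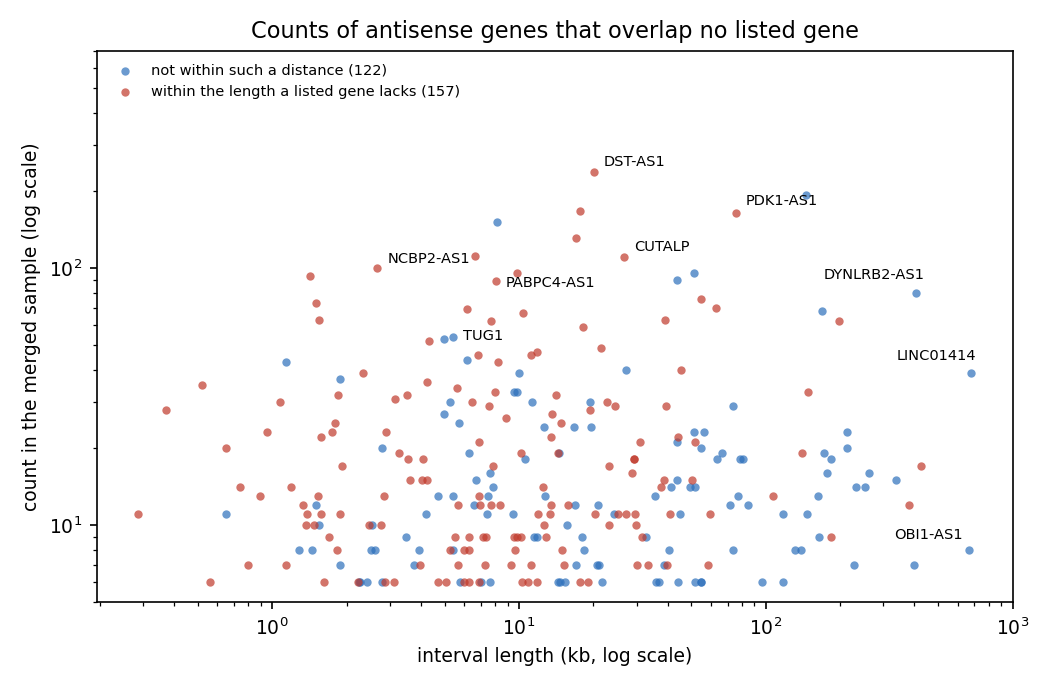
Each point is 1 of the 279 antisense genes, with its interval length in kb on the horizontal log axis and its count in the merged sample on the vertical log axis; red points lie closer to a listed protein-coding gene than the length by which that gene's listed interval falls short of its RefSeq length, and blue points do not. Counts of 6 occur beside higher ones over most of the range of lengths, the highest count of 237 is at 20.1 kb, and the 5 longest genes hold between 7 and 80 counts.

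Length had little bearing on the members' counts. The rank correlation of count with interval length (Spearman's rho) came to 0.06 across the 279 members, to 0.16 across 534 lincRNA genes (long intergenic non-coding RNAs) that overlap no listed gene and to 0.36 across the 1142 overlapping antisense genes. Genes of one library are not independent replicates, and these values are descriptions. In the 38 members under 2 kb the median count was 12.5 (11 to 22), and in the 55 members of 50 kb and over it was 15 (12 to 19). Per kb of interval the same groups had medians of 11.2 and 0.117.

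Beside other classes, the members resembled the lincRNA genes in count. The median of those lincRNA genes was 14 (13 to 16), 1 count above that of the members. That of the overlapping antisense genes was 18 (17 to 19). Per kb over all lengths, the members had a median of 1.32 (0.999 to 1.70), the lincRNA genes 0.584 (0.474 to 0.749) and the overlapping antisense genes 1.76 (1.56 to 1.94), at median lengths of 11.3, 28.5 and 12.9 kb. Within length groups the members were closer to the lincRNA genes on this scale, with 11.2 (7.94 to 17.3) against 11.4 (7.65 to 21.1) per kb under 2 kb, 2.66 (2.09 to 3.46) against 2.62 (2.23 to 3.49) from 2 to 10 kb, 0.621 (0.501 to 0.786) against 0.592 (0.539 to 0.759) from 10 to 50 kb and 0.117 (0.0934 to 0.196) against 0.151 (0.128 to 0.171) at 50 kb and over. Between 10 and 50 kb the 94 members had a median of 12 (11 to 16), the 175 lincRNA genes 14 (12 to 16), the 428 overlapping antisense genes 24 (20 to 27) and the 3604 protein-coding genes without overlap 34 (33 to 36). Among genes of 50 kb and over, overlapping antisense genes had a median of 32.5 (26 to 40) and protein-coding genes 75 (70 to 80). An overlapping antisense gene can hold reads of the gene it overlaps, because the table does not tell whether strand was used, and the part of this in its higher counts was not tested.

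**Figure D2:**
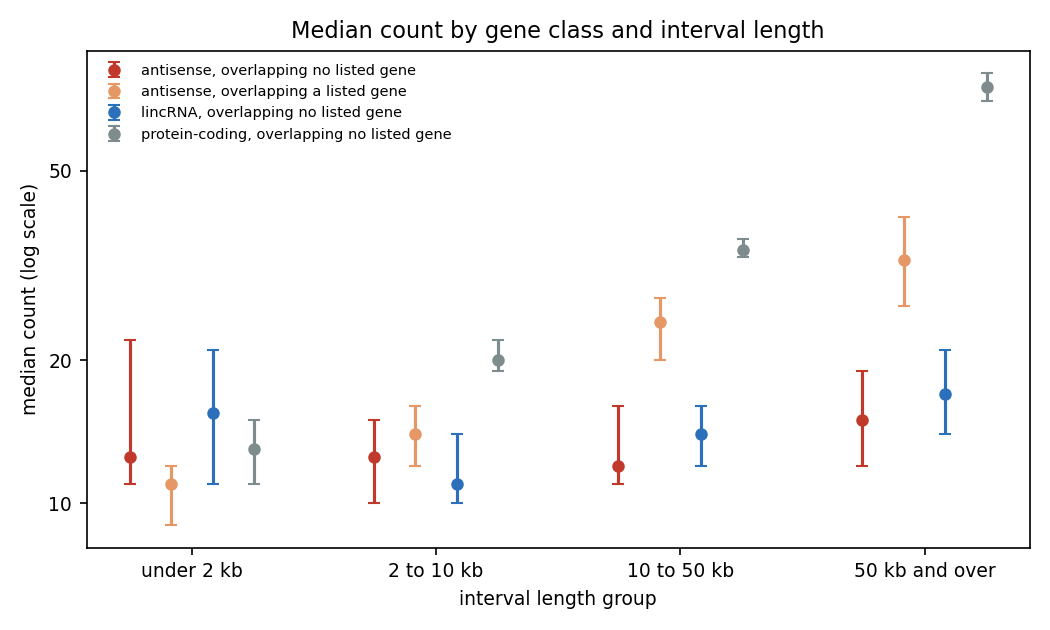
Points are median counts (log axis) of 4 gene classes in 4 groups of interval length, and bars are 95% order-statistic intervals over genes, which are not replicates. The antisense genes without overlap lie between 12 and 15 counts in every length group, while the overlapping antisense genes go from 11 to 32.5 and the protein-coding genes from 13 to 75.

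The highest member was DST-AS1, antisense to the gene of dystonin, a giant linker of the cytoskeleton. It had 237 counts (95% Poisson interval 208 to 269) over 20.1 kb of chromosome 6 (56708800 to 56728876, hg19). DST had 5606 counts, but over an interval of 185 kb that ends 201 kb away from DST-AS1, while the RefSeq gene is 497 kb long and overlaps DST-AS1. Per kb, DST-AS1 had 11.8 counts and the listed DST interval 30.3.

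The other high members with a symbol include 2 named after genes of RNA metabolism. PDK1-AS1 had 163 counts (139 to 190) over 75.7 kb of chromosome 2 (173345568 to 173421257). It starts 374 bases from the start of PDK1, a kinase that restrains pyruvate dehydrogenase and was not listed under that name, and in RefSeq it overlaps ITGA6, an integrin chain with 175 counts. NCBP2-AS1 had 100 counts (81.4 to 122) over 2.66 kb of chromosome 3 (196666748 to 196669405). The gene it opposes, NCBP2, encodes a subunit of the nuclear cap-binding complex and had 55 counts over a listed 2.29 kb of its 7.12 kb. PABPC4-AS1 had 89 counts (71.5 to 110) over 8.04 kb of chromosome 1 (40030832 to 40038875), and PABPC4, for a poly(A)-binding protein, had 9 over a listed 1.20 kb of its 16.0 kb. CUTALP, now classed by RefSeq as a transcribed pseudogene, had 110 counts (90.4 to 133) over 26.5 kb of chromosome 9 (123587106 to 123613633), 309 bases from PSMD5. DYNLRB2-AS1 had 80 counts (63.4 to 99.6), spread over 408 kb of chromosome 16 (80188950 to 80597032). These members thus reach counts of one order over intervals that differ widely in length.

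Of the 15 highest members, 8 carry no symbol in the name table and are given by identifier. ENSG00000256947 had 193 counts (167 to 222) over 146 kb of chromosome 11 (114081338 to 114227293). The nearest listed protein-coding genes on its sides are USP28 and C11orf71, and RefSeq places ZBTB16, NNMT and 2 serotonin receptor genes between them, none of which was listed by name. ENSG00000263624 had 166 counts (142 to 193) over 17.6 kb of chromosome 17 (17071260 to 17088868). It lies 36.3 kb from the listed interval of MPRIP, and that interval is 89.1 kb long against a RefSeq length of 150 kb. ENSG00000258232 had 151 counts (128 to 177) over 8.15 kb of chromosome 12 (49658939 to 49667089). RefSeq places the tubulin gene TUBA1C and the filament gene PRPH between its listed neighbours TUBA1A and TROAP, and neither was listed by name. ENSG00000236266 (131 counts) lies 6.28 kb from the clock gene PER3, and ENSG00000251143 (111 counts) 6.37 kb from NUMA1, a spindle protein gene whose listed interval covers 5.05 kb of 77.7 kb. ENSG00000227006 (96 counts) lies 15.3 kb from GALNT2, a glycosyltransferase gene with 390 counts. AKAP13-AS1 also had 96 counts, over 51.3 kb, and ENSG00000259712 had 90 over 43.8 kb, 10.6 kb from the kinase gene MAPK6. AKAP13 itself was not listed by name. A name absent from the list can mean fewer than 6 counts, a changed identifier or a feature that was not counted, since 681 listed identifiers have no entry in the name table.

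Counted per kb, the leading members were mostly short and without a symbol. Among members of 0.5 kb or more, 9 of the 10 highest are under 2 kb long and 9 carry no symbol. The first was ENSG00000265401 with 35 counts over 0.518 kb of chromosome 17 (16285466 to 16285983), 67.6 per kb. It begins 113 bases from the listed interval of UBB, a ubiquitin gene with 29 counts over 1.24 kb. ENSG00000232220 had 93 counts over 1.42 kb of chromosome 19 (54377880 to 54379303), 65.3 per kb, and lies 369 bases from MYADM with 8 counts. ENSG00000234961 had 73 counts over 1.51 kb of chromosome 10 (17275324 to 17276832), 48.4 per kb. It lies 3.37 kb from the listed interval of vimentin (VIM), which had 67 counts over 1.69 kb, although the RefSeq gene is 9.35 kb long. ENSG00000261396 had 63 counts over 1.55 kb of chromosome 16 (67572460 to 67574009), 85 bases from RIPOR1 with 8, and the next listed protein-coding gene on its other side is CTCF itself. The others were ENSG00000259375 (38.0 per kb), NCBP2-AS1 (37.6), ENSG00000259279 (30.7), ENSG00000235351 (27.8), ENSG00000262662 (24.3) and ENSG00000228703 (19.6). Shorter still, ENSG00000267458 (28 counts in 0.37 kb) reached 75.7 per kb and ENSG00000266341 (11 counts in 0.287 kb) 38.3. Of the 5 shortest members, GFOD1-AS1 alone was at 6 counts.

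The longest members were sparse. LINC01414 had 39 counts over 681 kb of chromosome 8, and OBI1-AS1 had 8 over 664 kb of chromosome 13, or 0.012 per kb, the lowest density of all members. ENSG00000250061 (17 counts over 425 kb) and ENSG00000237647 (7 over 400 kb) were similar, with 0.0400 and 0.0175 per kb.

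Other listed genes were often close. The nearest one lay a median of 8.69 kb away, from 2 bases to 494 kb, and for the lincRNA genes without overlap the median was 33.5 kb. Within 1 kb, 60 members (21.5%, 16.8 to 26.8%) had a listed gene, against 11.6% of those lincRNA genes (9.02 to 14.6%). Within 5 kb the shares were 40.5% (34.7 to 46.5%) and 22.5% (19.0 to 26.3%), and within 20 kb they were 64.2% and 39.5%. An antisense gene is by definition annotated opposite another gene, and the part of this in the distances was not tested.

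**Figure D3:**
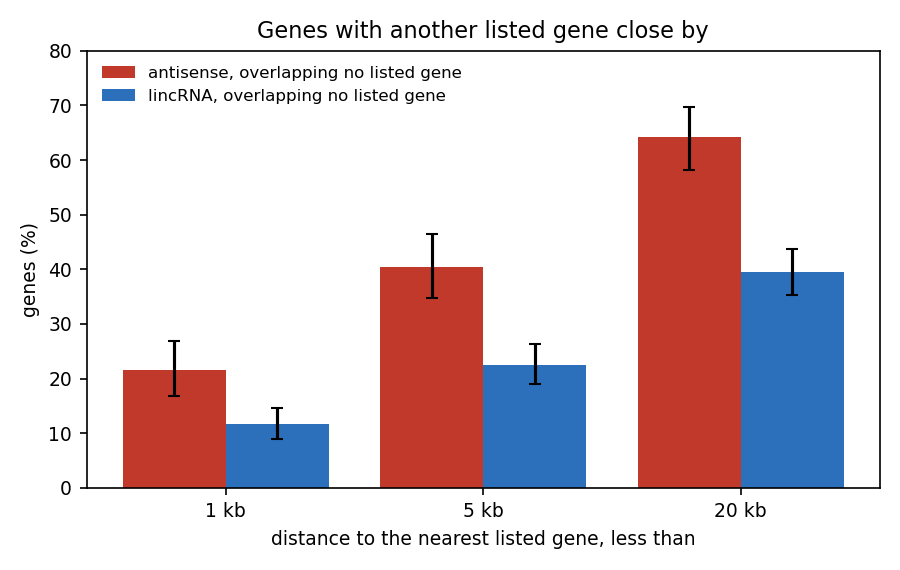
Bars give the percentage of genes with another listed gene at less than 1, 5 or 20 kb, for the 279 antisense genes (red) and the 534 lincRNA genes without overlap (blue), with exact 95% Clopper-Pearson intervals over genes. The antisense genes are at 21.5, 40.5 and 64.2% and the lincRNA genes at 11.6, 22.5 and 39.5%.

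The neighbour was mostly a protein-coding gene with more counts. It was protein-coding for 229 members, antisense for 25, a pseudogene for 13 and of another class for the rest. Of all 17201 listed genes, at least 11718 are protein-coding. Among the 229, the neighbour had more counts in 173 and the member in 50, with medians of 41 and 13. Over the 7982 protein-coding genes that overlap no listed gene the median was 38, near that of the neighbours. The difference is thus not particular to neighbours. Within 1 kb, 13 of 58 members had more counts than the protein-coding neighbour, and the medians were 55.5 for the neighbour and 13 for the member. Of the 5 members closest to a listed gene, 3 were below the members' median. MRPS35-DT (6 counts) lies 2 bases from MRPS35, a mitochondrial ribosomal protein gene with 21. KHDC1-AS1 (11) lies 18 bases from a gene with 10. TMCO1-AS1 (6) lies 26 bases from TMCO1, a calcium channel gene of the endoplasmic reticulum with 125. MORC2-AS1 (36) lies 58 bases from MORC2, a chromatin-compacting ATPase gene with 233, and SLC16A1-AS1 (16) lies 61 bases from SLC16A1, a lactate transporter gene with 143.

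Which gene each member overlaps was looked up in RefSeq, where 114 of the 279 could be matched by name. RefSeq classes 109 of them as lncRNA and the other 5 otherwise, among them TUG1 (54 counts) and INAFM2 (12), both now classed as protein-coding. In that annotation 50 of the 114 (43.9%, 34.6 to 53.5%) overlap a protein-coding gene that is itself listed, 23 (20.2%) overlap only protein-coding genes not listed by name, and 41 (36.0%) overlap none. In all 37 pairs of the first kind with a known strand for both genes, the strands were opposite, and for the other 13 the strand was not known. Thus many members lack an overlap only within the listed intervals. The listed interval of the partner, the gene overlapped in RefSeq, was a median 42.2% of its RefSeq length, and under 50% in 28 of the 50. Over all 11718 listed protein-coding genes with a match it was a median 99.6%, and under 50% in 13.5%. The rule, which asks for no overlap, favours partners with a short interval, and this was not tested. In 6 of the 50 the partner's interval was as long as in RefSeq or longer. In others it was nearly as long yet far away, such as STXBP5 (97.4%), 289 kb from STXBP5-AS1. The members' own listed lengths were not compared with their RefSeq lengths.

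Counts of the 3 kinds of member were alike, and counts per kb were not. The median count was 13.5 (11 to 22) with a listed partner, 12 (9 to 18) with only unlisted ones and 13 (9 to 19) with none. Per kb the medians were 0.853 (0.583 to 1.73), 0.222 (0.111 to 0.542) and 1.23 (0.501 to 2.62), over median lengths of 15.8, 43.6 and 10.2 kb, so the kind with unlisted partners had the longest intervals and the lowest density. Members with unlisted partners include DYNLRB2-AS1 (80 counts), GRPEL2-AS1 (33) at a mitochondrial import factor gene, CCDC13-AS1 (24) and BBOX1-AS1 (19). Members that overlap none include CYP1B1-AS1 (23) and HOXB-AS4 (19).

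Partners had more counts than the members in 40 of the 50 pairs, with a median of 55.5. Most protein-coding genes lie above the members' median of 13. The 7982 that overlap no listed gene had a lower quartile of 16 and a median of 38. A partner with more counts is therefore not read as a trait of these pairs. Among the 37 pairs known to be on opposite strands the partner had more in 30, with a median of 61. Per kb the order was mixed: the member was higher in 22 of the 50 pairs and the partner in 28. Spearman's rho between the densities was 0.21 across the 50 pairs, which are genes of 1 library and share its depth. COL4A2 and DLGAP1 each enter with 2 members. COL4A2, a basement-membrane collagen gene with 93 counts (0.781 per kb), is overlapped in RefSeq by COL4A2-AS1 with 34 (6.07 per kb) and COL4A2-AS2 with 21 (3.05 per kb). DLGAP1 (67 counts) is overlapped by DLGAP1-AS4 (21) and DLGAP1-AS5 (16). WASHC5, for a subunit of the actin-nucleating WASH complex, had 7 counts over the listed 8.46 kb of its 67.5 kb, and WASHC5-AS1 had 52 over 4.31 kb. CD63, for a vesicle tetraspanin, had 173 counts over 1.79 kb (96.9 per kb) and CD63-AS1 had 22 (13.9 per kb). Pairs in which the antisense gene was denser lay beside pairs in which it was far sparser, so no single ratio describes them.

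**Figure D4:**
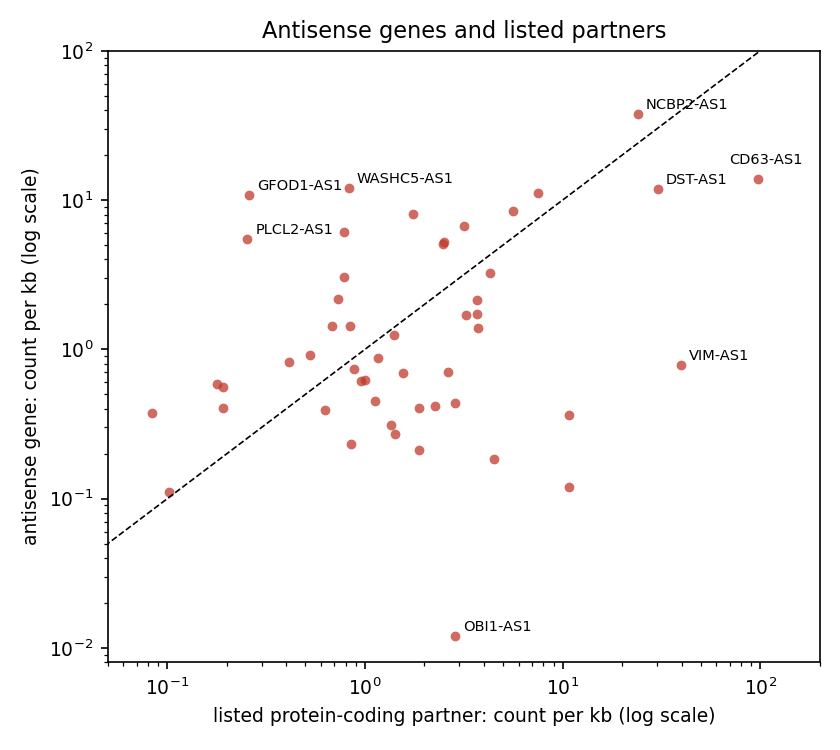
Each point is 1 of 50 antisense genes with a listed protein-coding gene that it overlaps in RefSeq; the axes give counts per kb of listed interval on log scales, for the protein-coding gene (horizontal) and the antisense gene (vertical), and the dashed line marks equal densities. Points fall on both sides of the line, 22 above it and 28 below, from OBI1-AS1 at 0.012 per kb to NCBP2-AS1 at 37.6.

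A looser measure covers members without a RefSeq match. For each listed protein-coding gene, the length by which its interval falls short of its RefSeq length was computed, and a member at a smaller distance than this lies where the full gene could extend, if the lacking part is on that side. This held for 157 members (56.3%, 50.2 to 62.2%) and for 23.2% of the lincRNA genes without overlap (19.7 to 27.0%). Antisense genes are by definition annotated opposite another gene and lincRNA genes between genes. The part of these definitions in the difference was not tested. The measure held for 41 of the 50 members known to overlap a listed gene in RefSeq and for 14 of the other 64 that were matched. Both rest on the same RefSeq genes and on members without a listed overlap, so this is no separate check of the measure. Of the 15 highest members it held for 10, and of the 10 highest per kb for 8. The 157 had a median of 14 counts (12 to 18) and the other 122 had 12 (11 to 14). Per kb the medians were 1.76 (1.32 to 3.05) and 0.538 (0.390 to 1.31), at median lengths of 8.04 and 19.5 kb. Within every length group the densities were closer than this and their intervals overlapped, with the members in possible reach higher. From 2 to 10 kb they were 2.94 (1.73 to 4.16) and 2.62 (2.09 to 3.19). From 10 to 50 kb they were 0.735 (0.556 to 0.922) and 0.446 (0.342 to 0.758). Medians under 2 kb were 12.5 and 7.24, and at 50 kb and over 0.203 and 0.109. In such places, RNA of the antisense gene and of the gene that could extend there cannot be told apart in these counts, because strand use is not stated. The measure uses distance and length only, and the strands of the 2 genes were not compared.

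Members that start close to a protein-coding start on the other strand had CG-rich windows. Among the 87 with a start in the promoter table, 33 do so within 1 kb, whether the genes diverge or overlap at their starts, at a median distance of 206 bases. Their windows hold a median of 28 CG pairs, from 11 to 50, whereas those of the other 54 hold a median of 4, from 0 to 48. The median over all promoters in the table is 14, exceeded in 30 of the 33 windows, in 13 of the 54 and in 48.9% of all promoters. PDK1-AS1, whose window is printed above with 33 CG pairs, belongs to this set. NCBP2-AS1 and PABPC4-AS1 with 6 and 2 CG pairs do not, nor does DST-AS1 with 27. The split used 1 start per gene, and some of the 54 have listed intervals close to a protein-coding gene. KPNB1-DT (30 CG pairs) lies 73 bases from KPNB1, and TMEM161B-DT (2 CG pairs) lies 64 bases from TMEM161B. CG-rich windows are typical of promoters that fire in both directions. These windows also lie close to a protein-coding start by the way the set was picked. The part of either in the CG pairs was not tested.

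**Figure D5:**
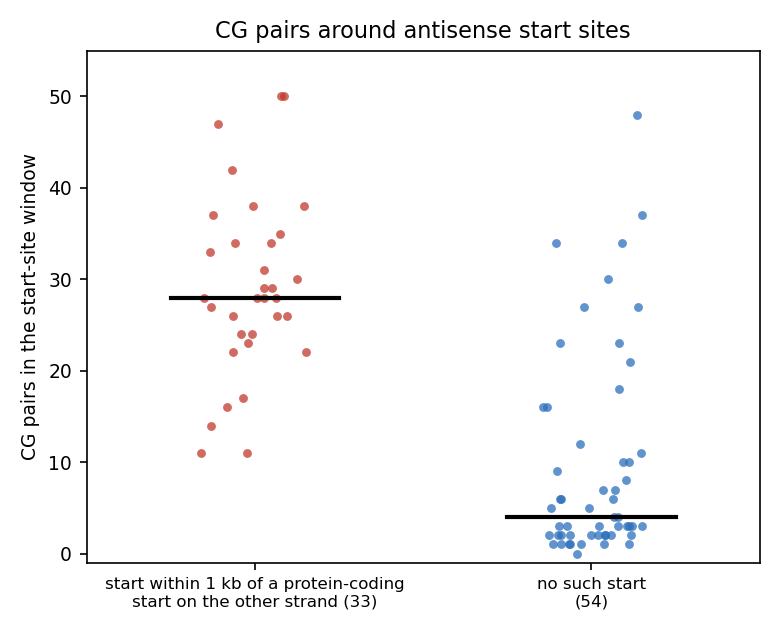
Each point is 1 of the 87 antisense genes in the promoter table, with the number of CG pairs in its start-site window on the vertical axis; the left group starts within 1 kb of a protein-coding start on the other strand, the right group does not, and black lines are medians. The medians are 28 and 4, and 13 of the 54 genes on the right lie above the median of all promoters, 14.

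Counts of this set were near those of the other members with a known start. The 33 had a median of 11 (9 to 20) and the other 54 had 13 (11 to 18), with overlapping intervals. The 27 matched members without a start in the promoter table could not be placed. Of the 26 with a listed partner, the partner had more counts in 19, the member in 6 and both were equal in 1, and the medians were 56.5 and 12. Most protein-coding genes lie above the members' median, so this is not read as a trait of the set. STXBP5-AS1 had 29 counts beside STXBP5 with 114, a gene for an inhibitor of vesicle fusion. TGFB2-AS1 had 10 beside TGFB2, a growth factor gene with 313. VLDLR-AS1, over 199 kb, had 62 beside the lipoprotein receptor gene VLDLR with 44, and C1RL-AS1 had 18 beside C1RL with 11. Spearman's rho between the counts of both genes was 0.11 across the 26 pairs, a weak relation among genes of 1 library.

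The divergent transcripts, named with -DT after the gene they leave, mostly had fewer counts than that gene. There are 22, with counts from 6 to 40 and a median of 13, and the nearest listed gene lies a median of 215.5 bases away, against 9.50 kb for the other members. The short distance comes with the naming, since in 19 of the 22 the nearest listed gene is the named one. In 20 the named gene is listed, with a median of 65.5 counts, and it had more counts than the transcript in 17. Since most protein-coding genes lie above the members' median, this is not read as particular to divergent transcripts. The following examples were chosen after their values were seen. KPNB1-DT had 40 counts, the highest of the 22, beside KPNB1 with 813, the gene of the import receptor importin beta. CEP192-DT had 30 beside CEP192, a centrosome gene with 464, and CNN3-DT had 13 beside the actin-binding gene CNN3 with 325. ZC3H12A-DT went the other way with 24 beside 17 for ZC3H12A, an RNA-decay factor gene. CDK13-DT had 6 beside CDK13, a transcription kinase gene with 295.

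Symbols ending in -AS give the name of a gene or cluster for 75 members, and for 50 of these (66.7%, 54.8 to 77.1%) a gene of that name was listed. These are 48 different genes, since COL4A2 and DLGAP1 each give their name to 2 members, and HOXB-AS4 and HOXD-AS2, named after clusters, count as not listed. How often genes in general are listed was not computed, so the share is not read as a trait of named genes. The named gene is not always the one that the member overlaps in RefSeq. The member's median was 14.5 (11 to 19) where the named gene was listed and 15 (9 to 23) in the 25 where it was not. Where it was listed, the named gene had more counts in 40 of 50 pairs. As with the partners, most protein-coding genes lie above the members' median, so this is not particular to named genes. Besides those above, VAC14-AS1 had 59 counts against 35 for VAC14, a scaffold of phosphoinositide kinase, whose listed interval is 8.16 kb of 114 kb. OCIAD1-AS1 had 43 against 112. Where the named gene was not listed, A2ML1-AS1 had 76 counts and overlaps RIMKLB (121) in RefSeq, and ZNF225-AS1 had 62 and overlaps the zinc-finger gene ZNF224 (12). Members thus appear with and without their named gene, at like levels.

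Some members come from 2 lists of known antisense RNAs. Over the whole table, members make up 19.6% of listed antisense genes, and the lists also hold genes annotated in other classes. The numbers below are therefore not read as a trait of known RNAs. From a list of 48 antisense RNAs at developmental genes, 11 were listed and 3 were members. HOXB-AS4, in the HOXB cluster, had 19 counts (11.4 to 29.7) over 6.26 kb of chromosome 17 (46706037 to 46712294), 2.20 kb from HOXB9 with 9. HOXD-AS2, between HOXD genes, and OTX2-AS1, beside a gene of forebrain patterning, had 6 each. From a list of 57 antisense RNAs linked to cancer, 31 were listed and 2 were members, FOXP4-AS1 with 23 counts and VIM-AS1 with 10. VIM-AS1 lies 1.36 kb from the listed VIM interval on the side away from ENSG00000234961, and in RefSeq it overlaps VIM on the opposite strand. The other listed RNAs of these lists overlap a listed gene or are annotated in another class.

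Members lay on all autosomes and on X. Chromosome 1 held 33 of the 279 and 141 of the 1423 listed antisense genes. Chromosome 17 held 27 members and 103 of the listed antisense genes. Its 27 are 9.68% of members, against 5.74% of all listed genes. The X chromosome held 3 members. FAM66C (11 counts) and FAM66D (12) belong to a family of near-identical copies, so their counts are uncertain, as alignment could divide reads between the copies.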

How the data were processed

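Values are whole-number counts, 1 per Ensembl gene interval, deposited by the authors for the merge of both replicates. The build (hg19), Bowtie and bedtools are named per the submitters' processing notes. Tool versions, the annotation release, strand use, any filter and how duplicate or multiply mapped reads were treated are not stated there. The lowest count is 6. Intervals were read as 1-based with both ends included, and 1 shared base counted as overlap. Symbols came from a table of Ensembl identifiers. It held 263 of the 279 members, of which 121 have a symbol. RefSeq GRCh38.p14 was matched by symbol or by a synonym of 1 gene alone on the same chromosome, and was used for names, gene lengths, start-site windows and neighbourhood only. Exact Poisson and Clopper-Pearson intervals and order-statistic intervals for medians are at 95% and used Python 3.11.15, pandas 2.3.3, numpy 2.4.6 and scipy 1.17.1. The search for the nearest gene and the Poisson interval were checked on simulated data, and the other routines were not. With 1 merged sample no test was made.

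Named members are the 15 highest by count, the 10 highest per kb of at least 0.5 kb, the 5 longest, the 5 shortest and the 5 nearest to a listed gene, those of 2 lists of known antisense RNAs, and of -AS symbols the 10 highest with and the 10 highest without a listed named gene; others are examples chosen after their values were seen. Members and lists were chosen with earlier results of these data known. The measure of possible extension of listed genes, the RefSeq overlaps and the distances between start sites were added after the counts had been seen. Alternatives set the count minimum, distance, symbols, chromosomes and ranking.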

Additional observations from a re-analysis of the deposited data

How the results depend on the processing

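The members' median of 13 counts was also 13 at 5 kb or more from any listed gene, with a symbol, on autosomes, and outside every RefSeq protein-coding gene, and 12 without members in possible reach of a listed gene; the last 2 settings were chosen after seeing the data. Reading the interval ends as half-open gave the same number, 279. Asking for 5 kb to any listed gene left 166 members. With 10 counts or more, which removes low genes by construction, the median was 19, the median per kb 1.87 in place of 1.32, the share of summed count 0.462% in place of 0.503%, and 190 members were left. The median per kb was 0.915 for members with a symbol and 0.538 without those in possible reach. The share of summed count was 0.309% at 5 kb or more, 0.222% with a symbol, 0.0632% for the 41 members outside RefSeq protein-coding genes and 0.184% without those in possible reach, each over fewer members. The share with a listed gene within 5 kb (40.5%) was 48.8% with a symbol, 63.4% outside RefSeq protein-coding genes, 32.0% without those in possible reach, 21.5% for 1 kb and 64.2% for 20 kb. The difference from the lincRNA median was -1, and -4 among genes with a symbol; the cause was not tested. It was -1.375 as a mean over 4 length groups. Ranked per kb, 3 of the 15 highest members by count were again among the 15 highest. The share at 10 counts or more is fixed by a minimum of 10 and was not recomputed there, nor was the share within 5 kb among members beyond 5 kb. The cause of the other shifts was not tested. No paired analysis was possible because both replicates enter as their merge alone, and leaving out a replicate was not run for the same reason. Depth limits members near 6 counts.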
